A study of Mus musculus with 28 samples.

Results

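The macrophage inflammatory CC chemokines described here are Ccl3, Ccl4, Ccl5, Ccl6, Ccl9, Ccl22 and Ccl24, 7 of the 36806 genes in each table, found by gene symbol in all 6 tables. Each of the 28 libraries gave 1 value per gene in FPKM (fragments per kilobase of transcript, relative to the library's fragments), a level that already accounts for transcript length. The RNA came from bone marrow-derived macrophages, primary cells grown from marrow of FVB/Hsd mice in L929-conditioned medium and taken on day 7 of differentiation. All cells had been transduced with a vector and selected with puromycin. The hairpins were sh1137 against Wdr82, a hairpin set against Set1a and Set1b together, and a hairpin against Pnuts. The control was the empty vector LMP in the unstranded, stranded and polyA sets and elsewhere a scrambled hairpin. Against LMP, loss of Wdr82 and the presence of a hairpin cannot be told apart. The LPS dose was 10 ng/ml, and the labels give neither the age nor the number of the mice.

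In the unstranded, stranded, DRB, Set1a+Set1b and Pnuts sets cells took up 4-thiouridine (4sU) during the last 45 min and the labelled RNA was captured, which enriches newly made transcripts. The polyA set held polyA-selected RNA, which is the accumulated messenger RNA. By their labels the libraries of the DRB, Set1a+Set1b and Pnuts sets were stranded too, and those of the polyA set were unstranded. The unstranded set compared sh1137 with LMP after 45 min, 2 h and 4 h of LPS and in untreated cells. The stranded set compared them after 1 h of LPS and in untreated cells, and the polyA set after 4 h of LPS and in untreated cells. In the DRB set, sh1137 and scrambled cells all had LPS for 45 min, with or without the elongation inhibitor DRB given beforehand. The Set1a+Set1b and Pnuts sets compared the hairpin with a scrambled control after 45 min of LPS and in untreated cells. With 1 library per condition in a set, the difference of a single pair has no replicate check and no p-value.

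CC chemokines are small secreted proteins that attract leukocytes by binding G protein-coupled CC receptors. In macrophages LPS is sensed by CD14 and TLR4, which signal through MyD88 to NF-kB and through TRIF to interferon regulatory factors, and many inflammatory chemokine genes are activated by these routes. Ccl3 and Ccl4 encode ligands that recruit monocytes and T cells, and Ccl5 (RANTES) encodes a further such ligand that depends on both signalling arms. Ccl6 and Ccl9 are rodent genes for ligands of CCR1 that myeloid cells make without stimulation. Ccl22 encodes a ligand of CCR4, which T helper and regulatory T cells carry. Ccl24 encodes an eotaxin, a ligand of the eosinophil receptor CCR3, and is known as a gene of macrophages exposed to IL-4.

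The CC genes of chromosome 11 lie side by side, and 5 of the 7 members fall in 1 cluster. In mm9, the build of the files, Ccl5 is at chr11:83339280-83344020 (ENSMUSG00000035042), Ccl9 at chr11:83386421-83392138 (ENSMUSG00000019122) and Ccl6 at chr11:83395558-83437195 (ENSMUSG00000018927). Ccl3 follows at chr11:83461346-83462857 (ENSMUSG00000000982) and Ccl4 at chr11:83476086-83478185 (ENSMUSG00000018930). The cluster spans 138906 bp and holds 2 further listed genes, the noncoding E230016K23Rik and the pseudogene Rpl9-ps1. The Ccl6 locus of the files is shared with E230016K23Rik, and in the RefSeq annotation of GRCm38.p6 the interval of E230016K23Rik, a long noncoding RNA, contains that of Ccl6. Ccl22 is at chr8:97269490-97275599 (ENSMUSG00000031779) and Ccl24 at chr5:136045807-136048913 (ENSMUSG00000004814), each alone.

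The RefSeq promoter table of GRCm38.p6 held 4 of the 7 members (Ccl22, Ccl3, Ccl6 and Ccl9), and the 250 bases before each annotated start are shown because these genes differ in how they answered LPS and the hairpins. Ccl22 is shown from chr8:94745434-94745683 (plus strand), Ccl3 from chr11:83649379-83649628, Ccl6 from chr11:83593088-83593337 and Ccl9 from chr11:83578637-83578886 (minus strand). Each is written 5′ to 3′ on the strand of the gene, ends at the base before the start, and has capitals at GGAAGT (the core read by PU.1 and other ETS factors of macrophages) and at the kappaB consensus, searched on both strands.
Ccl22: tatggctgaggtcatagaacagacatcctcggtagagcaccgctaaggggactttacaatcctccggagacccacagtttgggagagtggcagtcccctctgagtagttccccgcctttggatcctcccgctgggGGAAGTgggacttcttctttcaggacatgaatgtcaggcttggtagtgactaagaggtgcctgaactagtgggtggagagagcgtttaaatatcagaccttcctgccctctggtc
Ccl3: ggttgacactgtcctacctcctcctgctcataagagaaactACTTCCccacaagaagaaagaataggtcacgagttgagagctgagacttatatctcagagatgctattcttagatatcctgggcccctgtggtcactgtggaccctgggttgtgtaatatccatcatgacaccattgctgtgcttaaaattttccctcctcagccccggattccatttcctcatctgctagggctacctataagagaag
Ccl6: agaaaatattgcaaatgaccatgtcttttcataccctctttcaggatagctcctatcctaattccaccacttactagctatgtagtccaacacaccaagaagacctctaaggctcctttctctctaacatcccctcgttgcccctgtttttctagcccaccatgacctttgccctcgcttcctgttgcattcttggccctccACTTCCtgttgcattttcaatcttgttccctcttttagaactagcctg
Ccl9: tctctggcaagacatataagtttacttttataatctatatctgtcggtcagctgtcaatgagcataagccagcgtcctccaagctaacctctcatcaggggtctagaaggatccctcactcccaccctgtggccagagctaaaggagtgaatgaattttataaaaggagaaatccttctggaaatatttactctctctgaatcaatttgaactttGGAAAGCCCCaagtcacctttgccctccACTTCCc
The ETS core was found once in each of the 4 promoters, and 19.7% of 32851 promoters of this length hold it. The kappaB consensus, a binding site of NF-kB, was found in that of Ccl9 alone, 35 bases before the start, and in 3.90% of all. The Ccl9 promoter also held an AP-1 site (TGANTCA, 6.75% of all) and 3 matches to the TATA box letters TATAAA (12.4% of all), of which 2 overlap on opposite strands. None of the 4 held the interferon response core (GAAA, any 2 bases, GAAA), which 2.98% of all hold. Near their starts the neighbouring genes Ccl6 and Ccl9 share the run gccctccacttcc of 13 bases, which includes the ETS core. A match describes these letters and is not a measured binding site.

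Between 11533 and 13799 genes reached 1 FPKM in a library, and relative depth within a set, read from the values of low genes, differed by 1.59-fold to 3.34-fold. Wdr82 was lower with its hairpin in all 10 pairs of sh1137 and control libraries, with 10.3 FPKM with sh1137 and 21.6 FPKM with LMP in untreated unstranded RNA. Ppp1r10, the gene of PNUTS, had 332 FPKM in the library labelled Pnuts sh and 203 FPKM with its scrambled control after LPS. In untreated cells of this set it had 144 and 89.5 FPKM. Its new RNA was thus raised under that label, the opposite of a loss. Ppp1r10 was also higher with sh1137 in each pair, with 111 FPKM against 52.4 FPKM with LMP in untreated unstranded RNA. Whether the labels of the Pnuts set are right was not tested. Setd1a and Setd1b were not 2-fold lower in the Set1a+Set1b sh libraries. In untreated cells Setd1a had 14.8 FPKM with the hairpin and 16.1 FPKM with scrambled, and Setd1b 11.8 and 11.3 FPKM. After LPS these levels were 13.5 and 18.1 FPKM for Setd1a and 6.70 and 10.5 FPKM for Setd1b. The 8 macrophage markers summed to 1832 to 12226 FPKM, while markers of T and NK cells summed to at most 6.58, of B cells to at most 2.19, of mast cells and basophils to at most 0.355 and of fibroblasts to at most 11.1. Neutrophil markers summed to 2.54 to 45.4 FPKM and dendritic cell markers to 6.53 to 102 FPKM. In bulk RNA, fewer cells of a type and less RNA per cell cannot be told apart.

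Within a library the members differed widely. Ccl3, Ccl4 and Ccl9 had the 3 highest FPKM in 19 of 28 libraries, and Ccl22 and Ccl24 the 2 lowest in 27. Of 168 neighbouring levels in these orders, 42 had deposited confidence bounds that did not overlap, and none of those lay among the 3 highest, whose order is therefore not resolved. The 9 libraries with other leading members included those after 2 h and 4 h of LPS, where Ccl5 had entered it. In the library labelled Pnuts sh of untreated cells the highest member was Ccl6, with 322 FPKM.

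By 4 h LPS raised Ccl3, Ccl4, Ccl5, Ccl9 and Ccl22 in the limma fit given further on, while Ccl6 was not called. Ccl3 had 316, 2576, 3165 and 7311 FPKM with sh1137 in untreated cells and after 45 min, 2 h and 4 h of LPS, against 160.3, 1781, 3204 and 9009.8 FPKM with LMP. Ccl4 had 320.2, 3579, 5096 and 9956 FPKM with sh1137 at these times and 207, 2997, 5398 and 12519 FPKM with LMP. With either vector both genes were several-fold higher by 45 min and highest at 4 h, and each LPS value lay above both untreated values. The deposited bounds of both genes were wide at high levels and overlapped those of the untreated library. For Ccl3 with sh1137 they were 1.05 to 5273 FPKM at 45 min and 78.6 to 554 FPKM in untreated cells.

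Ccl5 and Ccl22 were low before LPS. Ccl5 had 2.62, 46.5, 1486 and 3762 FPKM with sh1137 at the 4 times and 3.32, 24.3, 1341 and 6578 FPKM with LMP. Ccl22 had 0, 1.54, 30.6 and 55.8 FPKM with sh1137 and 0.125, 0.543, 27.8 and 97.6 FPKM with LMP. Both were at or under 3.32 FPKM in untreated cells and were highest at 4 h with either vector. Ccl9 took another course, with 210.4, 947, 675 and 756 FPKM with sh1137 and 129.7, 566, 718 and 1235 FPKM with LMP. It was already abundant in untreated cells, was several-fold higher at 45 min, and was highest at 45 min with sh1137 but at 4 h with LMP.

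Ccl6 had 90.0, 135, 85.0 and 97.3 FPKM with sh1137 and 29.2, 48.1, 32.8 and 34.7 FPKM with LMP at the same 4 times. The values at each LPS time lay within 2-fold of the untreated value of the same vector. All 4 sh1137 values lay above all 4 LMP values, but the deposited bounds of sh1137 and LMP overlapped at each time. Ccl24 was low, with 0.350, 1.04, 2.82 and 0.701 FPKM with sh1137 and 0, 0, 0.660 and 0.125 FPKM with LMP. It never reached 3 FPKM.

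**Figure D1:**
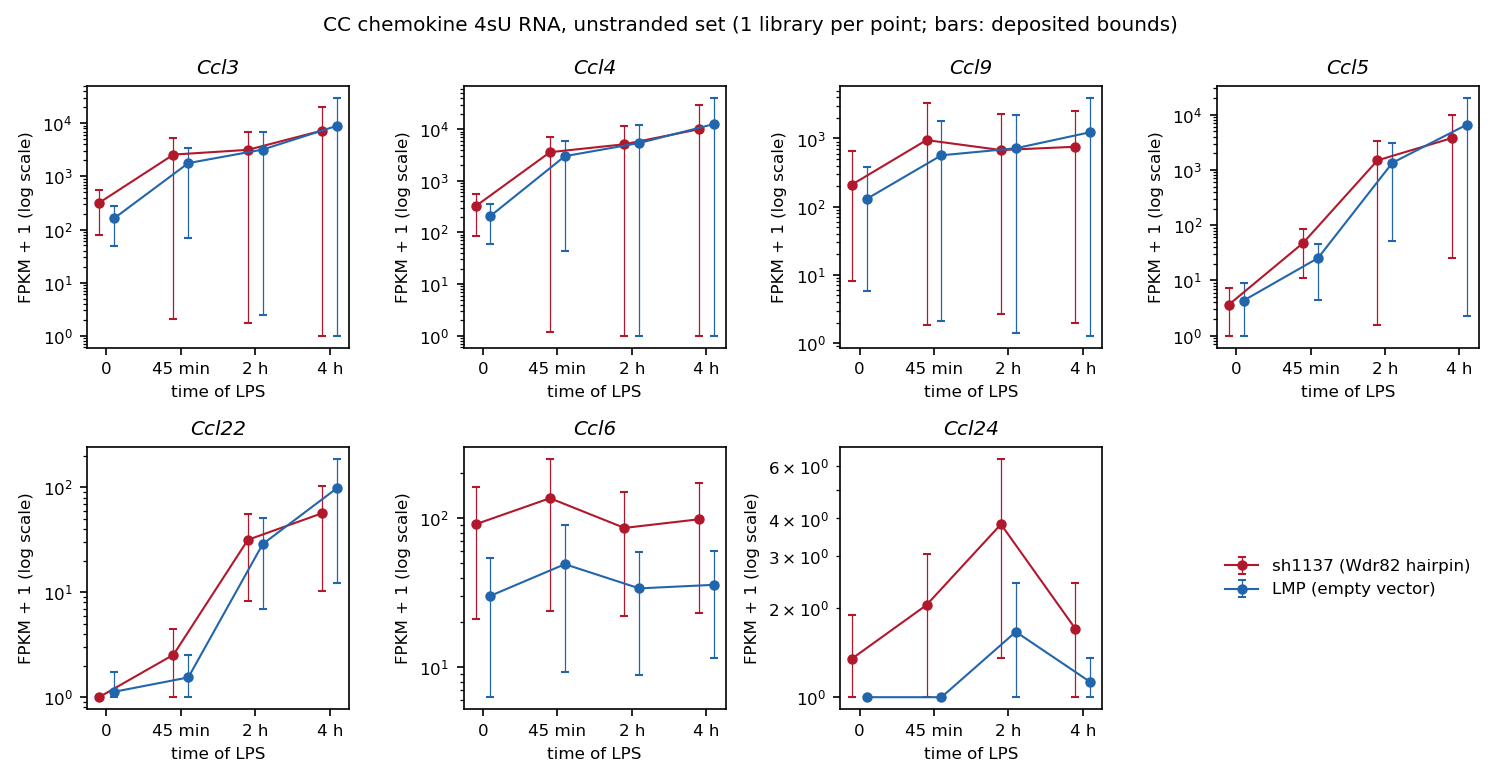
FPKM of the 7 chemokines in the unstranded 4sU set, a panel per gene, on a log axis of FPKM + 1 against the time of LPS (evenly spaced categories), with a point for each library (1 per vector and time) and bars for the deposited bounds, sh1137 in red and LMP in blue. Ccl3, Ccl4, Ccl5, Ccl9 and Ccl22 are higher at every LPS time than before it in either vector, while the Ccl6 values stay within 2-fold of their start, at 85.0 to 135 FPKM with sh1137 and 29.2 to 48.1 FPKM with LMP.

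The 8 libraries of the unstranded set were fitted with limma as the sum of a vector and a time effect on log2(FPKM + 1). The 3 residual degrees of freedom measure how far the vector effect differs between times and not the spread between cultures. Of the 7 members, limma called 3 higher after 45 min of LPS, 6 after 2 h and 5 after 4 h at a Benjamini-Hochberg adjusted p under 0.05. Of all 16106 genes tested, 2.97%, 13.5% and 25.8% were called higher at these times. Ccl22 and Ccl24 reached the 1 FPKM needed for the fit only in libraries with LPS, so these counts are not read against the shares of all genes. At 4 h the log2 change was 10.30 ± 0.421 (SE) for Ccl5, 6.14 ± 0.371 for Ccl22, 5.43 ± 0.256 for Ccl4, 5.17 ± 0.338 for Ccl3 and 2.54 ± 0.405 for Ccl9. The limma adjusted p of these 5 lay between 0.000882 (Ccl5) and 0.00932 (Ccl9).

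The early calls were Ccl4 (3.66, limma adjusted p 0.00799), Ccl3 (3.24, 0.0191) and Ccl5 (3.13, 0.0317). Without the 2 h libraries only Ccl4 kept its call at 45 min, and without the 4 h libraries Ccl3 and Ccl4 did. Ccl9 missed it at 45 min with a log2 change of 2.14 and an adjusted p of 0.0638 by limma. At 2 h the calls of Ccl9 and Ccl24 were lost without the 45 min libraries (limma adjusted p 0.0505 and 0.0630), and that of Ccl24 also without the 4 h libraries (0.0569). Ccl6 was called at none of the times, with log2 changes of 0.64 ± 0.117 (SE) at 45 min, 0.04 at 2 h and 0.18 at 4 h and limma adjusted p of 0.0600, 0.833 and 0.276.

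Pairs of an LPS and an untreated library with the same vector were compared as log2 of (FPKM + 1), with no test. A gene was measured in a pair at 1 FPKM or more in either library and was called at 2-fold or more. In the unstranded set, whose 3 LPS times share 1 untreated library per vector, 5 of 7 measured members were called higher at 45 min with sh1137 (8.71% of all measured genes) and 4 of 5 with LMP (5.96%). At 2 h 6 of 7 were called with sh1137 (13.1%) and 5 of 6 with LMP (11.5%). At 4 h 5 of 6 were called with sh1137 (21.1%) and 5 of 6 with LMP (20.3%). The measured members without a call at these times were Ccl6 in every pair and Ccl24 with sh1137 at 45 min. In the stranded set at 1 h the call went to 2 of 5 members with sh1137 (4.47%) and 3 of 5 with LMP (4.22%). In polyA RNA at 4 h it went to 5 of 6 with sh1137 (16%) and 5 of 6 with LMP (18.7%). The 5 called in polyA RNA were Ccl3, Ccl4, Ccl5, Ccl9 and Ccl22, with either vector. At 45 min 4 of 7 were higher with Set1a+Set1b sh (6.17%), where Ccl24 was lower (3.83% of genes were), and 4 of 5 with its scrambled control (5.56%). In the Pnuts set 4 of 5 were higher in the library labelled Pnuts sh (8.41%) and 4 of 5 with the scrambled control (5.68%). Ccl22 and Ccl24 were measured in several of these pairs only through the LPS library in which they were high, so their calls had to follow and the counts are not read against the shares of all genes. Ccl6 was at 2-fold in none of the pairs.

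The stranded set had the fewest members called. There Ccl3 had 3914 FPKM with sh1137 and 2011 FPKM with LMP at 1 h, against 1700.0 and 633 FPKM in untreated cells with these vectors. Ccl9 had 1315 FPKM with sh1137 and 919 FPKM with LMP after LPS, against 850.3 and 380.1 FPKM in untreated cells. Untreated cells of this set already carried high Ccl3 and Ccl9 in relation to their LPS values, most of all with sh1137. Ccl5 stood at 6.71 FPKM with sh1137 and 3.05 FPKM with LMP after 1 h, against 2.80 and 3.28 FPKM in untreated cells, and was the member without a call with LMP other than Ccl6.

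In accumulated mRNA Ccl5 and Ccl4 had the highest LPS ratios of the members. Ccl5 had 3209 FPKM with sh1137 and 6662 FPKM with LMP after LPS, against 6.66 and 7.81 FPKM in untreated cells. Ccl4 had 6267 FPKM with sh1137 and 7407 FPKM with LMP after LPS, against 108 and 44.6 FPKM in untreated cells. Each LPS value lay above both untreated values of its gene. The deposited bounds of LPS and untreated libraries were apart for Ccl5 with sh1137 and overlapped in the other pairs of these genes. The log2 LPS ratios were 8.71 with sh1137 and 9.56 with LMP for Ccl5, and 5.85 and 7.34 for Ccl4. Ccl6 mRNA had log2 ratios of 0.16 with sh1137 and 0.38 with LMP.

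Among the hairpin comparisons, Ccl6 was the 1 member 2-fold or more higher in every 4sU pair. In the unstranded set it had 90.0 FPKM with sh1137 and 29.2 FPKM with LMP in untreated cells, and 97.3 and 34.7 FPKM at 4 h. The stranded set gave it 106 FPKM (deposited bounds 54.7 to 156) with sh1137 and 28.1 FPKM (15.9 to 40.3) with LMP after 1 h of LPS, and 142 and 30.8 FPKM in untreated cells. In these sets the sh1137 value was 2.54-fold or more its control. In the DRB set Ccl6 had 104 FPKM with sh1137 and 25.3 FPKM with the scrambled control under DRB, and 62.9 and 16.4 FPKM without DRB. With Set1a+Set1b sh it had 676 FPKM (bounds 287 to 1064) against 148 FPKM (83.1 to 214) with scrambled after LPS, and 521 against 98.7 FPKM in untreated cells. In the libraries labelled Pnuts sh it had 571 FPKM (bounds 222 to 918) against 78.4 FPKM (38.6 to 118) with scrambled after LPS, and 322 against 43.6 FPKM in untreated cells. By its label the hairpin library was the higher one of each 4sU pair, against either kind of control.

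The 12 log2 ratios of Ccl6 in 4sU RNA ran from 1.35 to 2.86, or 2.54-fold to 7.24-fold. The Pnuts set gave 2.85 after LPS and 2.86 in untreated cells. Ppp1r10 was higher by the label in that set, as it also was with sh1137. With the labels of the Pnuts set exchanged these 2 ratios would be -2.85 and -2.86, but whether they were exchanged was not tested. Of 10890 genes measured in all 12 pairs, 6 genes (0.0551%) were 2-fold or more higher in each, Ccl6 among them. Without the Pnuts set the 10 ratios of Ccl6 ran from 1.35 to 2.39, and 0.128% of genes measured in these pairs were 2-fold or more higher in each. The deposited bounds of Ccl6 did not overlap in 6 pairs, after LPS and in untreated cells of the stranded set (1.98% and 1.69% of genes), the Set1a+Set1b set (0.868% and 0.564%) and the Pnuts set (1% and 0.567%). In polyA RNA the levels were 233 FPKM with sh1137 and 269 FPKM with LMP after 4 h of LPS, and 208 and 206 FPKM in untreated cells. The polyA log2 ratios were -0.21 after LPS and 0.01 in untreated cells, below the lowest 4sU ratio of 1.35. The difference between the 2 kinds of RNA was not tested, since each has 1 library per condition.

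Over the 4 times of the unstranded set limma put Ccl6 at 1.47 ± 0.0824 (log2, SE) with sh1137 against LMP, 2.76-fold, with a Benjamini-Hochberg adjusted p of 0.0177. It was the 1 member of 7 called, where 599 of 16106 genes (3.72%) were called higher and 518 lower. Leaving out any 1 of the 4 times kept the estimate at 1.43 to 1.51 but ended the call, with limma adjusted p of 0.0711 (without 4 h), 0.0884 (without untreated), 0.0967 (without 2 h) and 0.126 (without 45 min). Those fits have 1 degree of freedom fewer and call 0 to 2 of all genes, against 1117 with all 4 times.

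Genes that overlap or adjoin Ccl6 were read beside it, since unstranded reads, as in the unstranded and polyA sets, do not separate overlapping genes. E230016K23Rik had 21.3, 41.7, 8.87 and 20.1 FPKM with sh1137 in untreated cells and at 45 min, 2 h and 4 h, against 0.414, 1.14, 0.268 and 1.07 FPKM with LMP. In the stranded set it had 14.6 FPKM with sh1137 and 0.0976 FPKM with LMP after LPS, and 17.4 and 0.221 FPKM in untreated cells. It was 2-fold or more higher in all 10 Wdr82 pairs, polyA included, where it had 4.05 and 0.236 FPKM after LPS. The limma estimate for E230016K23Rik was 3.65 ± 0.255 (log2, SE, adjusted p 0.0194), and this call too was lost when any 1 time was left out (0.0738 to 0.126).

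In the Set1a+Set1b and Pnuts sets E230016K23Rik lay at or under 2 FPKM, too low for the ratio with 1 FPKM added to be set beside that of Ccl6. With Set1a+Set1b sh E230016K23Rik had 1.91 FPKM against 0.841 FPKM with scrambled after LPS, and in the library labelled Pnuts sh 0.953 against 0.186 FPKM. In untreated cells it had 1.19 FPKM with Set1a+Set1b sh against 0.233 FPKM, and 0.580 against 0.159 FPKM in the Pnuts set. Without the added 1 FPKM the hairpin library was 2.27-fold to 5.12-fold higher in these 4 pairs, with overlapping bounds, and both Pnuts pairs lay under the 1 FPKM that counts as measured. Under DRB E230016K23Rik had 2.44 FPKM with sh1137 and 0.631 FPKM with scrambled, where Ccl6 stood at 104 and 25.3 FPKM. Rpl9-ps1, a pseudogene that may share reads with Rpl9, was 2-fold or more higher in 7 of 10 Wdr82 pairs and 1 of the 4 others. Its limma estimate was 2.57 ± 0.466 (log2, SE, adjusted p 0.0492), with the call lost in each fit without 1 time. How far reads of the noncoding RNA enter the Ccl6 values was not tested.

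**Figure D2:**
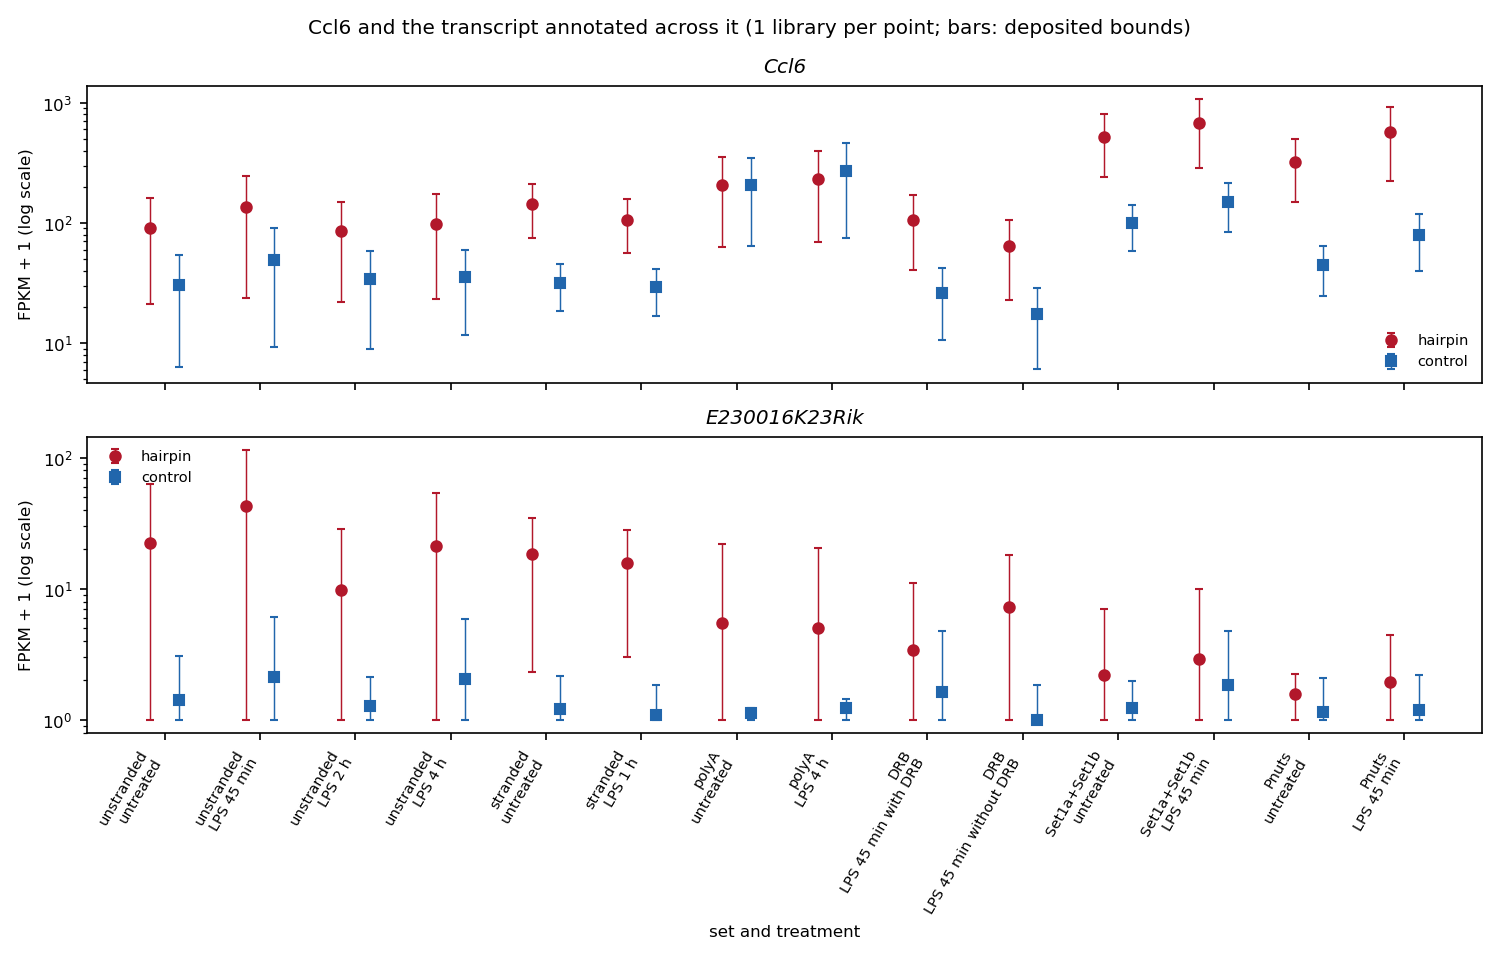
FPKM + 1 on a log axis of Ccl6 (upper panel) and E230016K23Rik (lower panel) in the 14 hairpin against control pairs, 1 point per library with bars for the deposited bounds, the hairpin (red) left of its control (blue). Ccl6 is higher in the hairpin library of the 12 4sU pairs and close to its control in the polyA pairs, and E230016K23Rik is at 2.44 to 41.7 FPKM with sh1137 and at or under 1.91 FPKM in the Set1a+Set1b and Pnuts libraries.

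Markers of cells that can make or answer these chemokines were set beside the Ccl6 result for the 4sU libraries. The 7 dendritic cell markers had a higher sum in the hairpin library of all 12 4sU pairs, the direction of Ccl6, at 1.00-fold to 2.80-fold, and also in both polyA pairs (1.49-fold and 1.70-fold), where Ccl6 was near its control. These sums were 12.4 to 102 FPKM in the 12 hairpin libraries and 6.53 to 44.5 FPKM in the 12 control libraries. In the Pnuts set after LPS the pair was nearly level, at 44.6 against 44.5 FPKM. From 2 (sh1137 at 2 h) to 6 (as with LMP in untreated unstranded RNA) of the 7 markers lay under 1 FPKM. A higher sum is therefore not read as a rise of all 7 markers. The 8 macrophage markers had a lower sum with sh1137 in all 8 Wdr82 4sU pairs, at 0.754 to 0.984 of the control sum. In polyA RNA their sum with sh1137 was 0.554 of the control sum in untreated cells and 1.66-fold after LPS. It was 1.69-fold to 2.11-fold higher with the hairpin label in all 4 Set1a+Set1b and Pnuts pairs. The macrophage marker sum and Ccl6 were thus both higher in those 4 pairs. With Set1a+Set1b sh the macrophage sums were 8688 FPKM against 5008 FPKM after LPS, and 5568 against 3291 FPKM in untreated cells. In the libraries labelled Pnuts sh they were 9635 FPKM against 5072 FPKM after LPS, and 7114 against 3368 FPKM in untreated cells. The 7 neutrophil markers had a higher sum with the hairpin in 7 of the 12 4sU pairs and a lower one in 5. Their sum was at most 6.15-fold higher (Set1a+Set1b sh, untreated). In polyA RNA it was lower with sh1137, at 0.566 of the control sum in untreated cells and 0.632 after LPS. The 3 eosinophil markers had a higher sum in the hairpin library of all 12 4sU pairs and both polyA pairs. They summed to 0.101 to 10.4 FPKM in hairpin libraries and 0 to 1.96 FPKM in control libraries, in which Epx reached at most 0.174 FPKM and Prg2 at most 0.277 FPKM. Of Epx, Prg2 and Ccr3, 1 or more was listed at 0 in each library, and 1 or 2 in each hairpin library. The higher sums are thus not a rise of all 3 markers. By limma 3 of the 8 macrophage markers (Cd14, Cd68 and Fcgr1) were lower with sh1137 and none higher, with every one of these calls lost when 1 time was left out. None of 5 tested dendritic cell markers and 5 tested neutrophil markers was called. Ccr3, the 1 tested eosinophil marker, was called higher, and that call was lost in the same way. The part of any of these in the Ccl6 result was not tested.

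Ccl3, Ccl4 and Ccl9 had sh1137 ratios above 0 in untreated cells and below 0 at 4 h of LPS, and limma called none of them. In untreated cells Ccl3 had 1700.0 FPKM with sh1137 and 633 FPKM with LMP in the stranded set, and 233 and 101 FPKM in polyA RNA. Ccl4 had 602 and 243 FPKM in the stranded set and 108 and 44.6 FPKM in polyA RNA. Ccl9 had 850.3 and 380.1 FPKM in the stranded set and 661 and 401 FPKM in polyA RNA. The sh1137 library was the higher one in each of these pairs. The untreated log2 ratios in the unstranded, stranded and polyA sets were 0.98, 1.42 and 1.20 for Ccl3, 0.62, 1.31 and 1.26 for Ccl4, and 0.69, 1.16 and 0.72 for Ccl9, all above 0. After 4 h of LPS they were below 0 in both sets that hold this time, at -0.30 (unstranded) and -0.07 (polyA) for Ccl3, -0.33 and -0.24 for Ccl4, and -0.71 and -0.37 for Ccl9, none at 2-fold. Their bounds overlapped in every hairpin pair, and limma called none of the 3 over the 4 times (0.30 for Ccl3, 0.12 for Ccl4 and 0.16 for Ccl9, adjusted p 0.443, 0.688 and 0.730). That fit takes 1 vector effect for all times, so it does not test a ratio whose sign changes between them.

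With the other hairpins none of these 3 genes reached 2-fold. After 45 min of LPS Ccl3 had 3317 FPKM with Set1a+Set1b sh and 2553 FPKM with scrambled, and 2506 FPKM in the library labelled Pnuts sh and 2469.6 FPKM with its scrambled control. Ccl4 had 4515 and 3103 FPKM in the Set1a+Set1b set and 2885 and 3165 FPKM in the Pnuts set. Ccl9 had 1988 and 1201 FPKM in the Set1a+Set1b set and 1251 and 953 FPKM in the Pnuts set. Ccl9 was higher in the hairpin library of both sets. In untreated cells the log2 ratios were 0.40, 0.75 and 0.91 for Ccl3, Ccl4 and Ccl9 with Set1a+Set1b sh and -0.12, -0.39 and 0.61 in the library labelled Pnuts sh. Whether these ratios differ from the sh1137 ratios was not tested, since the sets have different controls and 1 library per condition.

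The sh1137 ratios of Ccl5 and Ccl22 lay on both sides of 0, across times for Ccl5 and between kinds of RNA at 4 h for Ccl22. Ccl5 at 45 min of LPS had 46.5 FPKM with sh1137 and 24.3 FPKM with LMP, and at 4 h 3762 and 6578 FPKM, log2 ratios of 0.91 and -0.81. In the stranded set at 1 h its log2 ratio was 0.93, and in polyA RNA at 4 h -1.05, with 3209 FPKM with sh1137 and 6662 FPKM with LMP. At 45 min against the scrambled control it was -0.17 with DRB and 0.53 without DRB. Apart from the pair with DRB, the sh1137 ratios of Ccl5 at 45 min and 1 h were above 0, and both 4 h ratios were below 0. In untreated cells Ccl5 was low and its ratio was 1.13 with Set1a+Set1b sh (19.1 against 8.20 FPKM) and -1.13 in the library labelled Pnuts sh (1.44 against 4.32 FPKM).

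Ccl22 was measured in 5 of the 14 hairpin pairs. At 4 h of LPS it had 55.8 FPKM with sh1137 and 97.6 FPKM with LMP in 4sU RNA (log2 ratio -0.80), and 11.9 and 4.35 FPKM in polyA RNA (1.27). New and accumulated RNA thus stood on opposite sides of 0 at this time. Ccl24 was measured in 4 pairs and met the 2-fold rule in each of them, at levels of 1.04 to 2.82 FPKM in the hairpin libraries. Its controls in those pairs had 0.660 FPKM (LMP at 2 h, against 2.82 FPKM with sh1137) or were listed at 0, as with LMP at 45 min (1.04 FPKM with sh1137), with scrambled under DRB (1.23 FPKM with sh1137) and with scrambled in untreated cells of the Set1a+Set1b set (2.25 FPKM with the hairpin). A gene at 1 to 3 FPKM passes the rule only through the library in which it is high, so these calls are no support for a change. By limma Ccl24 missed the threshold over the 4 times (0.82 ± 0.162, log2, SE, adjusted p 0.0554).

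**Figure D3:**
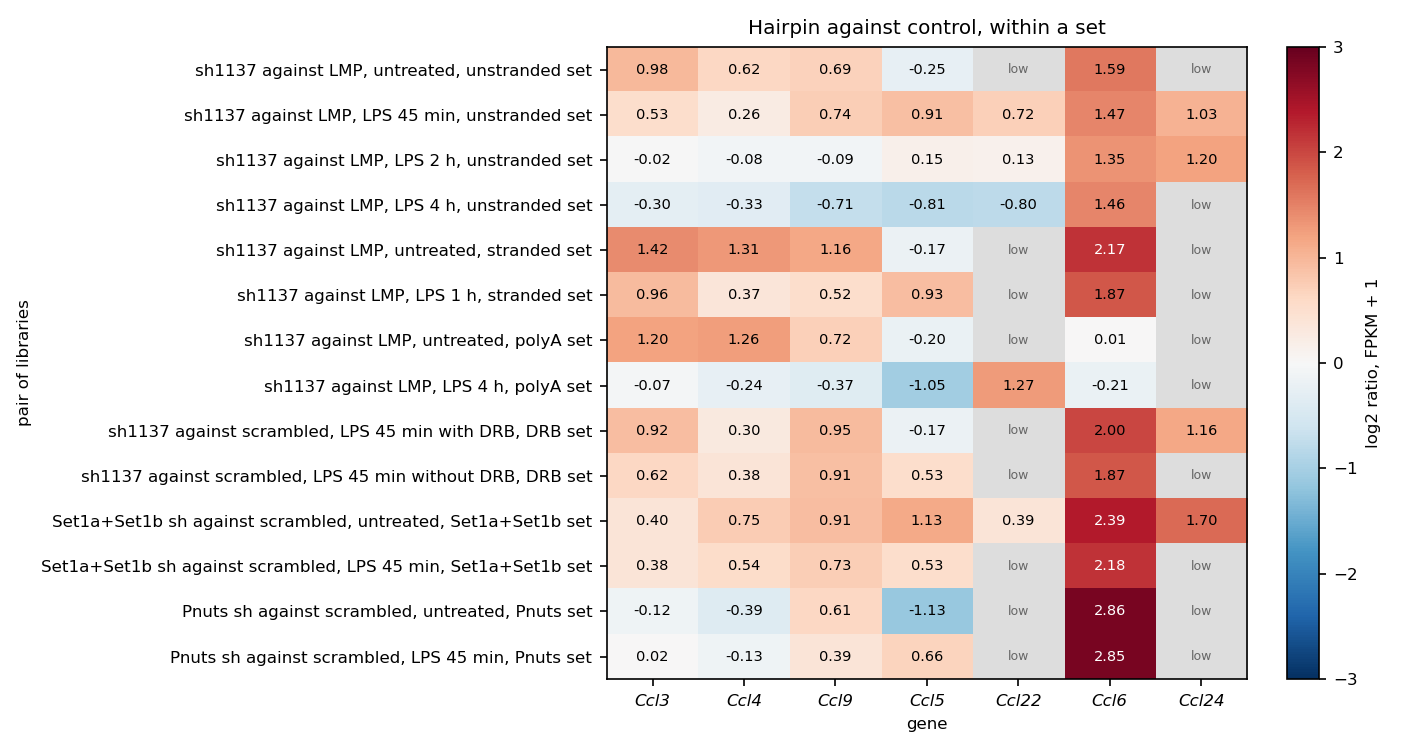
Log2 ratios of the 7 members (columns) in the 14 hairpin against control pairs (rows), with 1 FPKM added to each level, red for higher and blue for lower with the hairpin, and grey cells marked low where a gene was not measured. The Ccl6 column is 1.35 or higher in the 12 4sU pairs and near 0 in the 2 polyA pairs, and Ccl3, Ccl4 and Ccl9 are above 0 in the untreated Wdr82 pairs and below 0 at 4 h.

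The counts of members 2-fold or more higher with sh1137 are given beside those of all measured genes. In the unstranded set they were 1 of 5 in untreated cells (5.48% of genes), 2 of 7 at 45 min (8.38%), 2 of 7 at 2 h (6.88%) and 1 of 6 at 4 h (7.04%). In the stranded set 1 of 5 was higher after LPS (7.92%), and in untreated cells 4 of 5 (7.37%), namely Ccl3, Ccl4, Ccl6 and Ccl9. In polyA RNA 1 of 6 was higher after LPS (3.72%, Ccl22) and 1 lower (2.99%, Ccl5), and in untreated cells 2 of 5 were higher (3.08%), namely Ccl3 and Ccl4. Ccl6 was thus called in both 4sU sets and not in polyA RNA. In the DRB set 2 of 6 were higher under DRB (4.26%) and 1 of 5 without it (4.12%). With Set1a+Set1b sh 1 of 5 was higher after LPS (3.91%) and 3 of 7 in untreated cells (3.08%), namely Ccl5, Ccl6 and Ccl24. The counts that hold Ccl24 (sh1137 at 45 min, at 2 h and under DRB, and Set1a+Set1b sh in untreated cells) include a gene measured only through its high library, so nothing is read from them. In the libraries labelled Pnuts sh 1 of 5 was higher after LPS (6.65%), and in untreated cells 1 of 5 was higher (3.82%) and Ccl5 lower (2.89%). Ccl6 was among the higher members in each 4sU pair.

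The response to LPS can also be set side by side between vectors, as the log2 LPS ratio with the hairpin minus that with the control. For Ccl3 this difference was -0.44 at 45 min, -0.99 at 2 h and -1.28 at 4 h in the unstranded set, -0.46 at 1 h in the stranded set and -1.27 in polyA RNA. Ccl4 gave -0.37, -0.71 and -0.95 in the unstranded set, -0.94 in the stranded set and -1.50 in polyA RNA, and Ccl9 0.05, -0.78, -1.40, -0.64 and -1.09. The fold increase of these 3 genes by 4 h of LPS was smaller with sh1137 than with LMP, beside their higher untreated levels with sh1137. A difference of 2-fold or more downwards was met by Ccl3 and Ccl9 at 4 h in the unstranded set (5.38% of genes) and by Ccl3, Ccl4 and Ccl9 in polyA RNA (2.95%). With 4 libraries and 1 per condition these differences have no replicate error.

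For Ccl5 the early differences with sh1137 lay above 0. The differences were 1.16 at 45 min (5.44% of genes at 2-fold or more upwards) and 1.10 at 1 h in the stranded set (4.6%). They were 0.40 at 2 h, -0.55 at 4 h and -0.85 in polyA RNA. The 1 h value rests on low levels, 2.80 and 6.71 FPKM with sh1137 and 3.28 and 3.05 FPKM with LMP before and after LPS. With Set1a+Set1b sh it was -0.60. In the library labelled Pnuts sh it was 1.79 (4.24%), from a lower untreated level than in its control. Ccl22 differed by 1.36 in polyA RNA (2.97% upwards). Ccl24 differed by -1.87 with Set1a+Set1b sh (3.69% downwards) at levels under 3 FPKM. For Ccl6 all of these differences lay between -0.29 and -0.01.

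**Figure D4:**
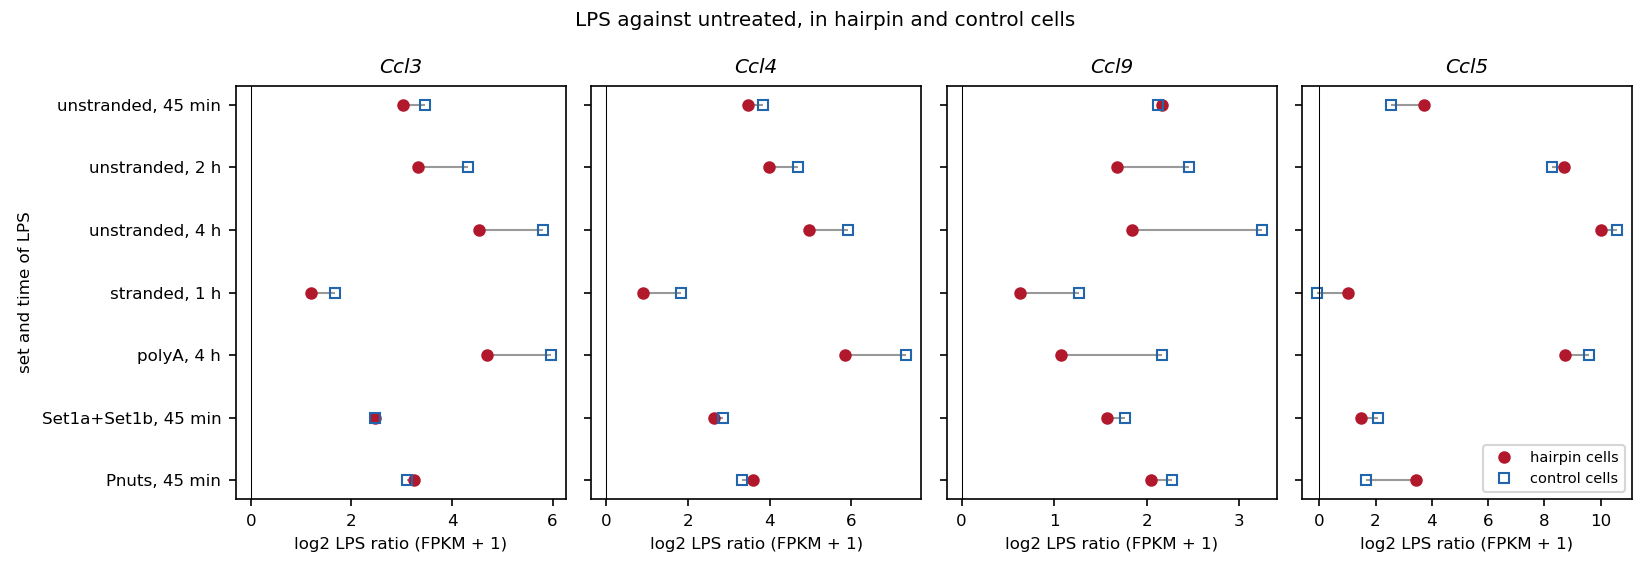
Log2 ratios of LPS against untreated libraries (horizontal axis, with 1 FPKM added to each level) for Ccl3, Ccl4, Ccl9 and Ccl5, a panel each, with hairpin cells as filled red points and their control cells as open blue squares in each set and time. The ratios of Ccl3, Ccl4 and Ccl9 at 4 h are lower with sh1137 than with LMP, and those of Ccl5 at 45 min and 1 h are higher with sh1137 than with LMP.

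In cells given LPS for 45 min, Ccl3 and Ccl4 were the members with 2-fold or more lower FPKM under DRB. FPKM is relative to the fragments of a library, so these ratios do not give the change in the amount of new RNA. Ccl3 had 194 FPKM with DRB and 833 FPKM without it in sh1137 cells, and 102 and 542 FPKM in scrambled cells. Ccl4 had 134 and 701 FPKM in sh1137 cells and 108 and 539.9 FPKM in scrambled cells. These 2 genes were 2-fold or more lower with DRB in both vectors, as were 15.9% of genes in sh1137 cells and 16% in scrambled cells, with log2 ratios of -2.10 (sh1137) and -2.40 (scrambled) for Ccl3 and -2.38 and -2.31 for Ccl4. Ccl9 had 257 and 399.7 FPKM in sh1137 cells and 132 and 212 FPKM in scrambled cells, lower in both but under 2-fold. Ccl6 was higher with DRB in both vectors, with 104 and 62.9 FPKM in sh1137 cells and 25.3 and 16.4 FPKM in scrambled cells (log2 ratios 0.72 and 0.59, under 2-fold). The median ratio of all measured genes was 0.18 in sh1137 and 0.16 in scrambled cells. Ccl5 had log2 ratios of 0.26 (sh1137) and 0.96 (scrambled) at 6.00 to 12.6 FPKM. Ccl24 was at 1.23 FPKM with DRB in sh1137 cells and listed at 0 without it, which the 2-fold rule calls higher, as it does 13.7% of genes.

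**Figure D5:**
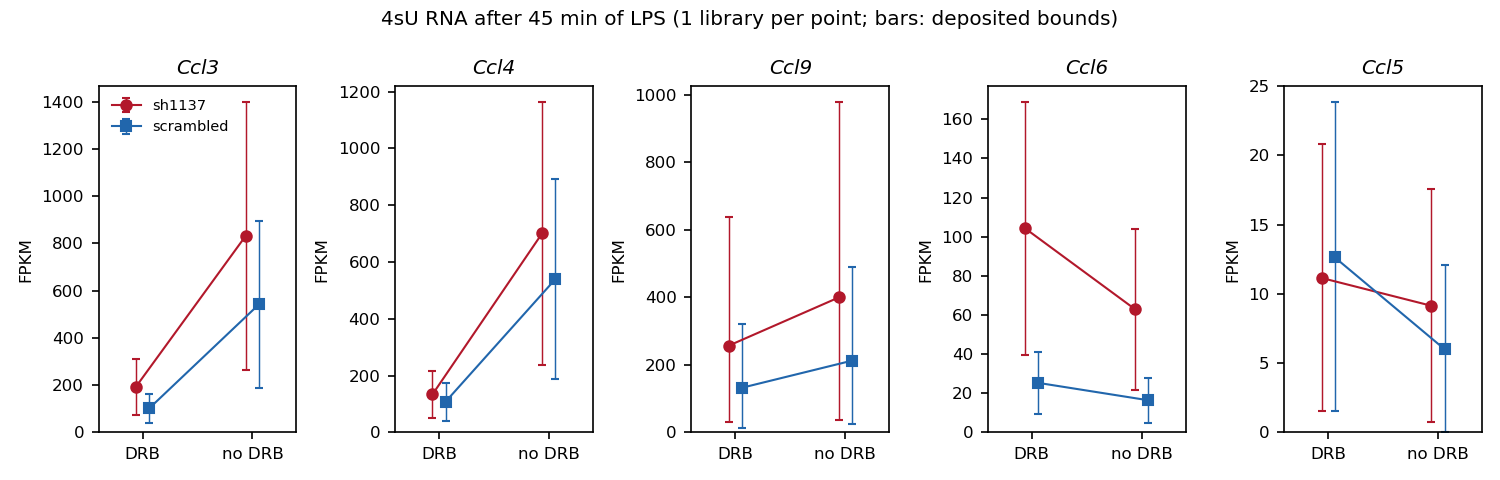
FPKM of Ccl3, Ccl4, Ccl9, Ccl6 and Ccl5 in the DRB set, a panel each on a linear axis from 0, with DRB left of no DRB, sh1137 in red and scrambled in blue, 1 point per library with bars for the deposited bounds. Ccl3 and Ccl4 are lower with DRB in both vectors, and Ccl6 is higher with DRB and higher with sh1137, at 104 and 62.9 FPKM with sh1137 and 25.3 and 16.4 FPKM with scrambled.

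The rest of the pathway was read from gene lists with the limma fit of sh1137 against LMP over 4 times, where the median of all genes was 0.03. In this fit 599 of 16106 genes (3.72%) were called higher and 518 lower. Of 9 tested genes among 12 other CC chemokines, 1 was called higher and none lower, with a median of 0.32. It was Ccl12, a monocyte attractant that binds CCR2, at 1.37 ± 0.138 (log2, SE, limma adjusted p 0.0240). Ccl12 had 973 FPKM with sh1137 and 381 FPKM with LMP after 4 h of LPS, and 38.5 and 18.8 FPKM in untreated cells. Ccl2 and Ccl7, the other leading genes of this list, were not called.

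Among the CC receptors 7 of 13 were tested, 2 were called higher and 2 lower, with a median of -0.07. The monocyte receptor Ccr2 was lower, at -0.67 ± 0.0883 (log2, SE, limma adjusted p 0.0313). Ccr3, the receptor of Ccl24, was higher at 2.03 ± 0.279 (limma adjusted p 0.0326), and Ccr9, a gut homing receptor, at 0.95 (0.0310). The eosinophil marker sum that includes Ccr3 was 0.0548 to 1.35 FPKM with LMP in the unstranded set, so Ccr3 was low in these controls. Ccr1, which binds Ccl6 and Ccl9, stood at -0.12 (adjusted p 0.434 by limma), and Ccrl2, a receptor-like protein, was not called.

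The signalling lists were set beside the same counts of all genes, 599 of 16106 called higher (3.72%) and 518 lower with sh1137. At these shares a short list can hold no called gene, so nothing is read from a low count. Of 18 tested genes of the TLR4 to NF-kB route none was called higher and 1 lower, the LPS co-receptor Cd14 (-1.04 ± 0.162, log2, SE, limma adjusted p 0.0394), with a median of 0.01. The abundant inhibitors Nfkbia and Tnfaip3 of this list were not called. Of 11 genes of the interferon arm, Irf1, Irf7 and Irf9 among them, none was called, with a median of 0.17. Of 9 tested genes of the IL-4 and STAT6 response 3 were called higher and none lower, with a median of 0.39. These were lectin receptors, Mrc1 (1.14, limma adjusted p 0.0239), Mgl2 (1.49, 0.0349) and Clec10a (1.03, 0.0436), while the transducers Stat6 and Il4ra were not called. Every sh1137 call named in these lists was lost in each fit without 1 of the times. With LPS limma called higher 10, 13 and 15 of the 18 TLR4 to NF-kB genes after 45 min, 2 h and 4 h. Tlr4 itself was called lower at 2 h (-1.56, limma adjusted p 0.00652). Of the 11 interferon genes 2, 6 and 8 were called higher, and of the 9 other CC chemokines 3, 4 and 5. Of all genes tested, 2.97%, 13.5% and 25.8% were called higher at these times.

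The genes most like each member were sought over the 8 unstranded libraries, among 6209 genes (6210 for Ccl24), by Pearson r of log2(FPKM + 1). The points share libraries and their LPS times, so r is a description. Ccl3 was closest to Cflar (0.998), an inhibitor of caspase activation, to Ccl4 (0.996) and to Vmp1 (0.994), an autophagy protein. Ccl4 was closest to Ccl3 (0.996), Traf1 (0.995) and Cflar (0.994). Ccl5 was closest to the integrin gene Itga4, then Denr (0.998) and Plagl2 (0.996), and Ccl22 to the cytokine gene Il6 (0.997) and Rfwd2 (0.995). Ccl9 lay nearest to Ehd1 (0.981), Mocs1 (0.978) and the RNase gene Zc3h12a (0.974). Ccl6 lay nearest to Clec4n (0.983), a C-type lectin gene, Gm6166 (0.980) and its neighbour E230016K23Rik (0.977). Ccl24, at its low level, was nearest to Higd2a (0.957), Man1a (0.947) and Plxnd1 (0.946). Among the members themselves Ccl5 and Ccl22 had r = 0.988 and Ccl3 and Ccl9 0.960, while Ccl6 had -0.09 to 0.58 with the others.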

How the data were processed

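The authors deposited 6 tables, each with the FPKM of every gene and library, its confidence bounds (lower and upper) and a status. Per the submitters' processing notes the tools were TopHat 1.3.1, Cufflinks 2.1.1 and Cuffdiff 2.1.1 with the build mm9. Which annotation was used, how libraries were scaled to each other and what level the bounds have is not given in the sources used here. No read counts were used, so depth is unknown and no counting interval is given, and levels are compared within a table only.

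Ratios were log2((FPKM + 1)/(FPKM + 1)) of 2 libraries, for genes at 1 FPKM or more in either and status OK in both, called at 2-fold. limma 3.58.1 in R 4.3.3 fitted vector and time to the 8 unstranded libraries (16106 genes at 1 FPKM or more in any), with Benjamini-Hochberg adjustment over all of them. It was tested on simulated data. Python 3.11.15, pandas 2.3.3, numpy 2.4.6 and matplotlib 3.10.9 did the rest. The members and lists were chosen with earlier results of these data known, and motifs and the flag on opposite directions were chosen after values had been seen. Named beside the members are the 3 most abundant genes of each list, genes called in a list's count and the 3 genes most like each member. E230016K23Rik and Rpl9-ps1 are named for their position. Some genes that this rule names are not reported here.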

Additional observations from a re-analysis of the deposited data

Results flagged for a closer look

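3 members had sh1137 ratios of 1.5-fold or more in both directions, depending on the time of LPS or the kind of RNA. None of these differences between times was tested, since each condition had 1 library per set, and the 1.5-fold limit was chosen after the values had been seen.

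Ccl5 had log2 ratios of sh1137 against LMP of 0.91 after 45 min of LPS in unstranded 4sU RNA and 0.93 after 1 h in stranded 4sU RNA. After 4 h they were -0.81 in unstranded 4sU RNA and -1.05 in polyA RNA, so new and accumulated RNA had the same sign at that time.

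Ccl9 had ratios above 0 before or early after LPS, at 0.69, 1.16 and 0.72 in untreated cells of the unstranded, stranded and polyA sets and 0.74 after 45 min in the unstranded set. Against the scrambled control it had 0.95 with DRB and 0.91 without DRB at 45 min. After 4 h in the unstranded set the ratio was -0.71.

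Ccl22 had 0.72 after 45 min and -0.80 after 4 h in unstranded 4sU RNA, and 1.27 after 4 h in polyA RNA. The 45 min value rests on 1.54 FPKM with sh1137 and 0.543 FPKM with LMP.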

How the results depend on the processing

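Of 195 alternative values for the counts of members called, 173 stayed within 1.5 times the reported count, and no called ratio of a member changed sign. With a pseudocount of 0.1 FPKM the count rose to 2 for sh1137 at 1 h (stranded) and to 2 for the limma sh1137 effect. With a pseudocount of 5 FPKM it was 1 for sh1137 at 45 min and 2 h (unstranded), 4 h (polyA) and under DRB, for Set1a+Set1b sh and the library labelled Pnuts sh in untreated cells, and for LPS at 1 h with sh1137. At 5 FPKM or more it was 1 for sh1137 at 45 min, 2 h and under DRB and for the library labelled Pnuts sh in untreated cells. Centring on the median gene gave 1 for sh1137 at 45 min (unstranded) and 4 h (polyA). For LPS at 45 min limma called 0 members with no filter on FPKM and 5 with a prior variance that follows expression. Leaving out 1 time gave 0 to 0 members for the sh1137 effect and 1 to 2 for LPS at 45 min.

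Over all genes limma called 1117 for sh1137, against 79 with no filter on FPKM, 1762 with the variance trend and 0 to 2 when 1 time was left out. For LPS at 45 min it called 693, against 308 with no filter and 198 and 296 without 2 h and 4 h, and for LPS at 2 h 3501, against 1633 with no filter and 2294 without 45 min. With no filter 36534 genes share the adjustment, and without a time 1 degree of freedom fewer is left. The calls of list genes with sh1137 were lost in every fit without 1 time. No paired analysis was possible because all libraries carry the replicate number 1, with 1 per condition in a set, so a block by number has no effect. The limma fit matches sh1137 and LMP by time of LPS. Depth is unknown, and genes under 3 FPKM, such as Ccl24, cannot be ranked between libraries.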
